A study of Mus musculus with 4 samples.

Results

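T cell receptor V genes encode the part of each receptor chain that, together with the joined junction, contacts antigen. All features whose symbol starts with Trav (alpha chain) or Trbv (beta chain) were taken: 128 Trav and 35 Trbv genes, 163 of the 32285 features in the count matrices. The cells were CD4+ Foxp3GFP+ regulatory T (Treg) cells of C57BL/6 Foxp3GFP reporter mice, enriched on CD4 beads, sorted for GFP and run on a droplet kit that reads the 5′ end of transcripts. There was 1 library from each of 4 sources: liver and spleen at 12 days, and liver and spleen at 7 weeks. The series text gives the 12-day mice as Foxp3GFP-Cre Rosa26 loxP-Stop-loxP-YFP and gives no such allele for the 7-week mice, so age and genotype may differ together. How many mice went into a library is not stated in the labels, and the stage label of the 7-week mice reads "aged".

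A barcode was kept as a cell with at least 500 genes, at most 10% mitochondrial UMIs and at least 1 Foxp3 UMI. This left 4157 of 8055 barcodes in 12-day liver, 4295 of 7720 in 12-day spleen, 1458 of 2608 in liver and 3828 of 6163 in spleen at 7 weeks, with 26078430, 25689127, 4931747 and 13862639 UMIs. Pairs of libraries shared 7 to 26 kept barcodes, at most 0.679% of the smaller library. With 1 library per group, no difference below has a replicate check and none was tested. Intervals are exact 95% limits for counting error alone. UMIs of 1 cell are not independent, so shares of cells stand beside shares of UMIs.

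During thymic development the beta chain is rearranged first, and the alpha chain afterwards on both alleles. The alpha locus holds one long row of Trav genes followed by one long row of Traj genes. A first rearrangement usually joins a Trav gene near the J genes to a Traj gene near the V genes, and later rounds on the same allele replace it with Trav genes farther upstream and Traj genes farther downstream. The Trbv genes also lie in one row, except Trbv31, which lies beyond the constant genes in the opposite orientation and joins by inversion. The Trav row of this mouse strain contains long repeats, and copies in them carry the letter d or n in their names.

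How alike these genes are limits how well a short read tells them apart, so the last 150 bases of the V exon are shown for sets that the results turn on. They come from GENCODE vM21 transcripts (mm10), run 5′ to 3′ on the plus strand and end at the base where the V exon stops. Capitals mark positions at which members of a set differ. Trbv12-1 (chr6:41113918-41114067) and Trbv12-2 (chr6:41119215-41119364), formerly V beta 5.2 and 5.1, differ at 14 of 150 positions and went opposite ways with age.
Trbv12-1: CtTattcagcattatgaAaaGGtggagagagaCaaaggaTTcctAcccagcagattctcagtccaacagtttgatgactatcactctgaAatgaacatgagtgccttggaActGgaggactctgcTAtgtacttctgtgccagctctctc
Trbv12-2: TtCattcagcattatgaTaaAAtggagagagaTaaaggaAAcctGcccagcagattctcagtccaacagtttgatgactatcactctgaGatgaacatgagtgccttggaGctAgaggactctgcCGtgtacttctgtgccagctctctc

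Trbv13-1 (chr6:41116319-41116468), Trbv13-2 (chr6:41121683-41121832) and Trbv13-3 (chr6:41130436-41130585) alternate with the Trbv12 genes along chromosome 6. They differ at 35 of 150 positions, and the closest pair is Trbv13-2 and Trbv13-3 at 89.3% identity.
Trbv13-1: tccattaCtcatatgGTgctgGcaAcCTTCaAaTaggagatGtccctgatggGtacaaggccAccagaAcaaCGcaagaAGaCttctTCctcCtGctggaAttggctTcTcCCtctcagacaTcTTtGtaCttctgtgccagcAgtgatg
Trbv13-2: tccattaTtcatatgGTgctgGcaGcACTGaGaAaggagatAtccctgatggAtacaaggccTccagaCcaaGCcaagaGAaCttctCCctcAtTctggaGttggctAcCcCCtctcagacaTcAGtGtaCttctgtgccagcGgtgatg
Trbv13-3: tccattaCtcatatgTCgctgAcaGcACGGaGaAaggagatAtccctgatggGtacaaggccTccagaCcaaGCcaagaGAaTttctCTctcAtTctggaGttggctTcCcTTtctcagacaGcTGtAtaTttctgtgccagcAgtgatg

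Trav16 (chr14:53743556-53743705) and its copy Trav16n (chr14:53351472-53351621) differ at only 3 of 150 positions but lie far apart on chromosome 14, with Trav16 the nearer to the J genes. Trav14-3 (chr14:53763545-53763694) and Trav14d-3-dv8 (chr14:53078896-53079045) differ at 6. Within each of these 2 pairs the members went opposite ways with age.
Trav16: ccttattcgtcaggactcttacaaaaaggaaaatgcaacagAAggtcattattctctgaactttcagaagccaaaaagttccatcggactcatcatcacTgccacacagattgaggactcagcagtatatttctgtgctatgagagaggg
Trav16n: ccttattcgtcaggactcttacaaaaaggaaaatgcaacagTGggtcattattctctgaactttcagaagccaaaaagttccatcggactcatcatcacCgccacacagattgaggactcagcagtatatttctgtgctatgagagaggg
Trav14-3: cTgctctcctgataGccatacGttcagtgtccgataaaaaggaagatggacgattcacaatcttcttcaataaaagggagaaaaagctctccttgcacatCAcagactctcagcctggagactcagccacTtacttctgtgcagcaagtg
Trav14d-3-dv8: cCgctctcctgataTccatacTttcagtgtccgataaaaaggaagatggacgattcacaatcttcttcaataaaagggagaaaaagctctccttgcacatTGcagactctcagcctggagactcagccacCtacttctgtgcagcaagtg

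V gene RNA was found in most kept cells. A Trbv UMI was present in 96.8% of cells in 12-day liver, 98.5% in 12-day spleen, 93.8% in liver and 96.1% in spleen at 7 weeks, and a Trav UMI in 84.6%, 82.8%, 73.5% and 73.4%. The median cell held 5035, 4981, 2926.5 and 3130 UMIs in the same order, so the 12-day cells were read more deeply. After each cell was thinned to 1000 UMIs, the Trav shares were 55.1%, 51.6%, 48.7% and 47.0%, and the Trbv shares 78.6%, 86.4%, 82.2% and 83.5%. Thinning left out 162, 106, 46 and 40 shallower cells. Barcodes with at least 5 UMIs of B or myeloid markers and no Cd3 UMI numbered only 12, 6, 0 and 1. Of the 12 in 12-day liver (median 2908 UMIs), 3 held a Trbv UMI and 0 a Trav UMI (95% limit 26.5%), which is too few to fix a background.

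Summed Trav RNA was 1058 UMIs scaled to a library total of 1000000 (CPM) in 12-day liver, 954 in 12-day spleen, 810 in liver and 860 in spleen at 7 weeks. Summed Trbv RNA was 2088, 2557, 2373 and 2447 CPM, lowest in 12-day liver. On a log2 scale, summed Trav CPM was 0.38 higher in 12-day than in 7-week liver and 0.15 higher in 12-day than in 7-week spleen. Summed Trbv CPM had a log2 ratio of 12-day liver over 12-day spleen of -0.29. Fewer cells with V gene RNA and less V gene RNA per cell cannot be told apart in these sums.

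Not all V genes were seen. At 0 UMIs in all 4 libraries were 19 Trav genes (13 of them annotated as pseudogenes) and 9 Trbv genes (all pseudogenes). At least 1% of the UMIs of their locus in some library came from 45 Trav and 20 Trbv genes, and in every library from 21 Trav and 16 Trbv genes. Trav8-2 is the only annotated pseudogene among them. The most used Trbv genes were Trbv1, Trbv3, Trbv13-2, Trbv15, Trbv16 and Trbv19, and the most used Trav genes included Trav4-4-dv10, Trav6-7-dv9, Trav3-3 and Trav7-4.

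A UMI share is not a cell share. To count cells, each cell was assigned to the V gene that led its locus with at least 2 UMIs and no tie, which placed 89.4%, 93.5%, 82.3% and 88.1% of cells for Trbv and 67.4%, 62.7%, 43.3% and 47.3% for Trav. Trbv17 took 5.05% of Trbv UMIs in 12-day liver but led 2.61% of assigned cells, at a median of 23 UMIs per cell. Trbv2 took 2.47% of UMIs there but led 5.30% of cells, at a median of 5 UMIs. A V gene's RNA per cell thus differed between genes, and only ratios of the same gene between libraries are read below.

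A V gene is called apart in a comparison when its share of the UMIs of its locus differed by at least 1.5-fold, with at least 1% in the higher library. The background beside each count is the share of all genes whose CPM differed as much, at 10 CPM or more (the level that 1% of Trav UMIs comes to) or at 25 CPM or more (for Trbv).

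Most Trbv genes that stood out between ages did so in both tissues, though in liver the share of Trbv genes apart was near that of all genes. The genes called apart as lower at 12 days were Trbv4, Trbv12-1, Trbv13-1 and Trbv13-3, both in liver and in spleen. Trbv26, formerly V beta 3, was called higher at 12 days in both tissues. In liver 7 of 19 Trbv genes were apart (3 higher and 4 lower at 12 days) beside 30.4% of all genes (14.3% higher, 16.1% lower). In spleen 7 of 20 were apart (3 higher, 4 lower) beside 20.0% (9.23% and 10.8%). Counted over assigned cells, 5 of the 7 in liver and 6 of the 7 in spleen also passed 1.5-fold. Those that fell short were Trbv13-3 (0.697) and Trbv12-2 (1.45) in liver and Trbv17 (1.49) in spleen. On the CPM scale of the background, 5 of 19 passed in liver (1 higher, 4 lower), a share under that of all genes, and 8 of 20 in spleen (4 higher, 4 lower).

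Trbv13-1, formerly V beta 8.3, led 2.21% of assigned cells in 12-day liver (95% interval 1.76 to 2.73), 2.46% in 12-day spleen (2.01 to 2.99), 5.58% in liver (4.35 to 7.04) and 4.63% in spleen at 7 weeks (3.94 to 5.39). Both 7-week libraries stood above both 12-day libraries, with no overlap of the intervals. Its UMI shares were 2.73%, 3.28%, 6.11% and 5.33%, a ratio of 12 days over 7 weeks of 0.448 in liver and 0.615 in spleen. Trbv13-3 led 3.66%, 3.24%, 5.25% and 6.29% of cells, with UMI ratios of 0.622 in liver and 0.487 in spleen. Trbv4, formerly V beta 10, led 0.861%, 1.19%, 2.42% and 2.82%, with UMI ratios of 0.360 and 0.477. The family's largest member did not follow by that margin: Trbv13-2, formerly V beta 8.2, led 8.69%, 9.14%, 12.0% and 11.1%, with UMI ratios of 0.807 and 0.907.

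The Trbv12 pair went opposite ways. Trbv12-1 led 1.35% of cells in 12-day liver (95% interval 1.0 to 1.77), 1.17% in 12-day spleen (0.861 to 1.55), 2.67% in liver (1.83 to 3.74) and 3.59% in spleen at 7 weeks (2.99 to 4.27). Its UMI ratio of 12 days over 7 weeks was 0.388 in liver and 0.307 in spleen, the lowest of the Trbv genes in spleen. Trbv12-2, one Trbv13 gene farther along the row, led 4.47%, 3.83%, 3.08% and 2.79%, with UMI ratios of 1.77 in liver and 1.41 in spleen. The 100-base stretches of both transcripts are all found in no other V gene.

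Among genes used more at 12 days, Trbv26 led 6.35%, 6.60%, 3.42% and 3.86% of cells in the order 12-day liver, 12-day spleen, 7-week liver and 7-week spleen. Its UMI ratio of 12 days over 7 weeks was 1.68 in liver and 1.68 in spleen. Trbv14 was higher at 12 days in liver (UMI ratio 1.70), where it rests on 49 and 9 assigned cells, and Trbv17 (1.56) and Trbv23 (1.58) in spleen. Trbv31, the inverted gene, led 8.18%, 7.64%, 6.25% and 5.69% of cells, with UMI ratios of 1.42 and 1.23, short of the threshold. Trbv20 (1.39 and 1.44) and Trbv19 (1.21 and 1.43) leaned the same way. Trbv1, Trbv3, Trbv5, Trbv15, Trbv16, Trbv2 and Trbv29 lay within 1.5-fold in both tissues.

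**Figure D1:**
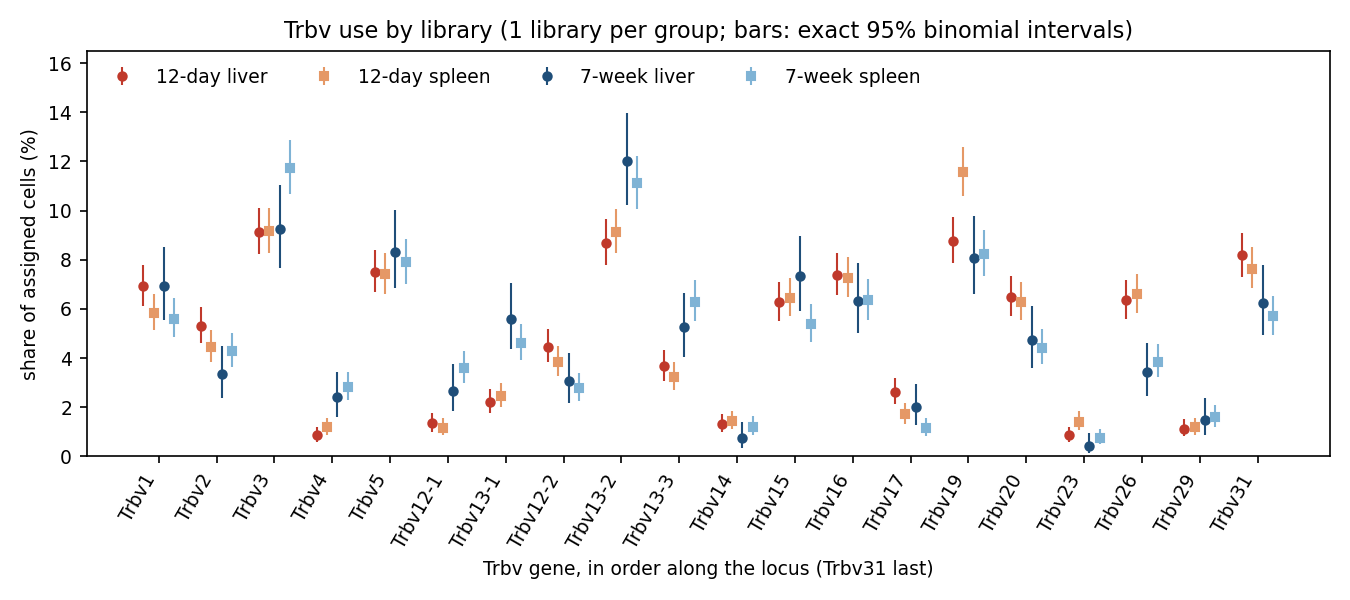
Share of assigned cells (y axis, %) led by each of the 20 Trbv genes that reached 1% in some library, in locus order (x axis); points are the 4 libraries and bars the exact 95% intervals. Trbv4, Trbv12-1, Trbv13-1 and Trbv13-3 are higher in both 7-week libraries, and Trbv26 in both 12-day libraries.

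Across the 20 Trbv genes, the log2 age ratio in liver and in spleen had a Pearson r of 0.877 and a Spearman rho of 0.854, and 17 of 20 had the same sign. Among the exceptions were Trbv15 (ratio 0.831 in liver and 1.20 in spleen) and Trbv2 (1.40 and 0.934). The 2 ratios share no library, but the genes share each library's depth and are not independent. The profiles as a whole, compared as the share of UMIs that would have to move from some genes to others, lay 14 points apart between ages in liver and 13.8 in spleen. For Trbv the tissues lay closer, at 6.39 points at 12 days and 7.98 at 7 weeks. For Trav the ages lay 28.3 points apart in liver and 17.7 in spleen, and the tissues 16.8 at 12 days and 13.8 at 7 weeks, so the 12-day tissues were about as far apart as the ages in spleen. Counting error adds to such distances, most where counts are low, as in 7-week liver (3997 Trav UMIs and 631 assigned Trav cells). How much it added was not tested, so the order of the distances is a description only.

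Between liver and spleen, the share of Trbv genes apart was near that of all genes. At 12 days 2 of 19 were apart, Trbv17 higher and Trbv23 lower in liver, beside 10.0% of all genes (6.93% higher, 3.10% lower). At 7 weeks 1 of 19 was apart, Trbv17, beside 8.42% (6.03% higher, 2.39% lower). By CPM, the scale of the background, 0 of 19 passed as higher and 2 as lower in liver at 12 days. The 2 were Trbv23 (0.432) and Trbv4 (0.549), and Trbv17 fell short (1.36). At 7 weeks Trbv17 alone passed by CPM (1.73). Trbv17, formerly V beta 9, took 5.05% of Trbv UMIs in 12-day liver, 3.02% in 12-day spleen, 3.45% in liver and 1.93% in spleen at 7 weeks. It was higher in liver at both ages, by 1.67-fold (1.58 to 1.77) and 1.79-fold (1.57 to 2.02). In assigned cells the ratios were 1.52 (1.10 to 2.10) and 1.73 (0.995 to 2.95), and at 7 weeks they rest on 24 liver and 39 spleen cells. Trbv19, formerly V beta 6, led 8.77% of cells in 12-day liver and 11.6% in 12-day spleen, against 8.08% and 8.24% at 7 weeks.

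Trav use differed with age along the locus. The 128 genes were divided in genomic order into a distal block of 43 genes (Trav1 to Trav8d-2), a middle block of 43 and a J-proximal block of 42 (Trav7-4 to Trav23). The J-proximal block led 82.2% of assigned cells in 12-day liver (95% interval 80.7 to 83.6), 76.8% in 12-day spleen (75.2 to 78.4), 63.1% in liver (59.2 to 66.9) and 66.8% in spleen at 7 weeks (64.6 to 69.0). Both 12-day libraries stood above both 7-week libraries, and the intervals of the 2 ages did not overlap. Of UMIs the block took 84.1%, 78.0%, 63.4% and 66.3%, a difference between ages of 20.7 points in liver and 11.7 in spleen. The distal block took 4.20%, 6.94%, 15.1% and 11.2% of UMIs, and the middle block 11.7%, 15.1%, 21.5% and 22.5%. Counted from the distal end, 50% of Trav UMIs was reached at gene 108 (Trav3-3) in 12-day liver, 104 (Trav12-3) in 12-day spleen, 94 (Trav7-5) in liver and 95 (Trav12-1) in spleen at 7 weeks.

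**Figure D2:**
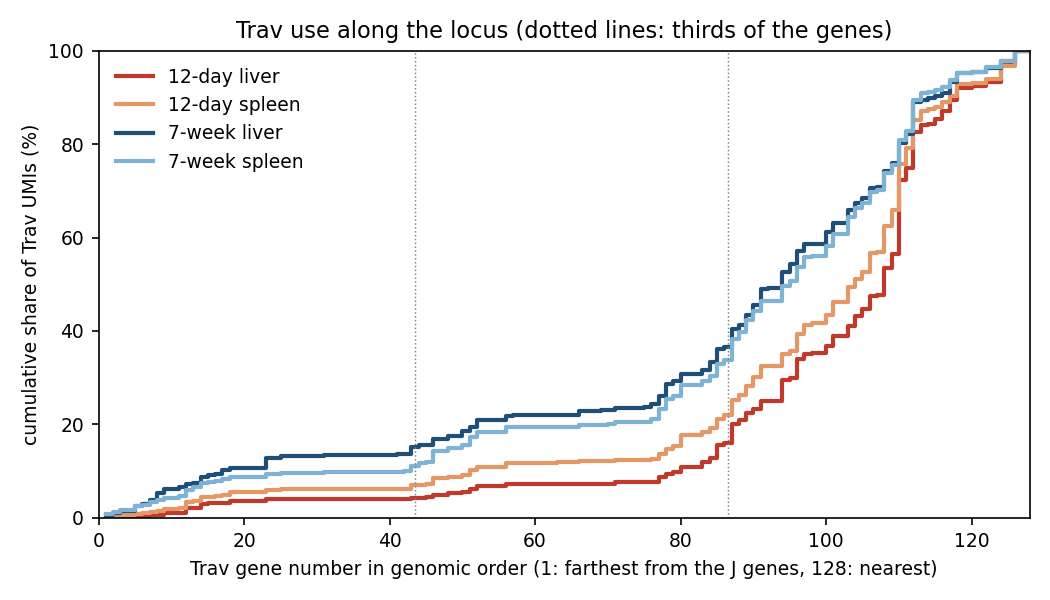
Cumulative share of Trav UMIs (y axis, %) along the 128 Trav genes in genomic order (x axis), 1 line per library; dotted lines divide the blocks. The 12-day liver line runs lowest through the distal and middle blocks, at 4.20% after gene 43, and the 7-week lines run highest.

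Between the tissues, the J-proximal block was 6.09 points higher in liver than in spleen at 12 days. At 7 weeks the difference of liver minus spleen was -2.91 points, and the intervals of the assigned-cell shares overlapped. With cells thinned to 1000 UMIs the 7-week difference was 0.143 points in the other direction, so no tissue difference could be read at 7 weeks at this depth.

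In liver 23 of 40 Trav genes were apart between ages (8 higher and 15 lower at 12 days), beside 32.5% of all genes (15.0% higher, 17.5% lower). In spleen 16 of 37 were apart (9 higher, 7 lower), beside 22.1% (9.92% and 12.1%). Counted over assigned cells, 21 of the 23 and 8 of the 16 also passed 1.5-fold. On the CPM scale of the background the balance differed. In liver 27 of 40 Trav genes passed, 17 higher and 10 lower at 12 days, where by share more were lower. In spleen 12 of 32 passed, 9 higher and 3 lower. Summed Trav CPM was itself higher at 12 days in both tissues, as given above.

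The largest age difference by share was that of Trav4-4-dv10 (chr14:53683647-53684177), which can also serve the delta chain. It took 15.8% of Trav UMIs in 12-day liver, 9.94% in 12-day spleen, 4.15% in liver and 5.35% in spleen at 7 weeks. It led 14% (95% interval 12.7 to 15.3), 8.57%, 4.44% (2.97 to 6.35) and 4.30% of assigned cells. By assigned cells the 12-day liver library stood alone at the top and the 7-week libraries could not be told apart. By UMI share the ratio of 7-week liver over 7-week spleen was 0.776 (0.651 to 0.922). The UMI ratio of 12 days over 7 weeks was 3.79 (3.25 to 4.46) in liver and 1.86 (1.70 to 2.03) in spleen. The 10 cells with most of its UMIs held 7.87% of them in 12-day liver but 48.8% in 7-week liver.

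Other J-proximal genes higher at 12 days in both tissues were Trav19, Trav9-4, Trav3-3 and Trav13-2. Over assigned cells Trav13-2 fell short of 1.5-fold in both tissues (1.19 in liver and 1.32 in spleen) and Trav3-3 in spleen (1.33). Trav19 took 3.86%, 2.68%, 1.43% and 1.24% of Trav UMIs in the order given above, with ratios of 2.71 in liver and 2.16 in spleen. Trav9-4 took 3.11%, 3.33%, 1.75% and 1.87%, with ratios of 1.77 and 1.78. Higher at 12 days in liver by the threshold were also Trav7-6 (3.32), Trav16 (2.36) and the pseudogene Trav8-2 (2.11), each on no more than 2 assigned cells in 7-week liver. In spleen Trav5-4 (1.84), Trav14-3 (1.69), Trav14-2 (1.57) and Trav21-dv12 (1.53) passed. Over assigned cells Trav5-4 passed there too (1.90), but Trav14-3 (1.43), Trav14-2 (1.40) and Trav21-dv12 (1.35) did not. Trav6-7-dv9, among the 2 most used in every library, took 7.66%, 6.09%, 6.88% and 6.76% and stayed within 1.5-fold.

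Lower at 12 days in both tissues were Trav8d-2, Trav14d-3-dv8, Trav6n-6, Trav8n-2, Trav16n and Trav6-3. Over assigned cells Trav8d-2 (0.883) and Trav6n-6 (0.813) did not pass in spleen. Trav16n took 0.761%, 1.13%, 2.48% and 2.05% of UMIs, with ratios of 0.307 and 0.555. Trav14d-3-dv8 took 0.402%, 1.30%, 1.28% and 2.28%, with ratios of 0.315 and 0.569. In liver the lowest ratios were those of Trav6-2 (0.048) and Trav5-1 (0.062), at 1.5% and 1.23% of UMIs in 7-week liver, where they rest on 11 and 4 assigned cells. Trav13d-1 (0.169) and Trav6n-5 (0.206) followed. In 7-week liver 10 cells held 53.5% of the UMIs of Trav16n and 96.4% of those of Trav8d-2, so single cells weigh heavily there. Without the 10 cells with most UMIs of the gene in each library, the log2 age ratio in liver turned to 0.24 for Trav8n-2 and 0.75 for Trav6-3.

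Trav1, the most distal gene, lay under 1% throughout. It took 0.0435% of Trav UMIs in 12-day liver (2 assigned cells), 0.126% in 12-day spleen (6), 0.650% in liver (5) and 0.830% in spleen at 7 weeks (11). Trav11, which forms the invariant chain of natural killer T cells, led 0 assigned cells in any library. Trav11, Trav11d and Trav11n together took 0.0254%, 0.0449%, 0.0500% and 0.0587% of UMIs. Trav11 shares nearly all of its sequence with Trav11d (0.41% of its 100-base stretches are unique), so its reads could be lost in counting.

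Across the 45 Trav genes, the log2 age ratio followed the order along the locus with a Pearson r of 0.725 in liver and 0.678 in spleen (Spearman rho 0.704 and 0.747). The age ratios in the 2 tissues had an r of 0.771 (rho 0.777), with the same sign in 37 of 45 genes. For the 20 Trbv genes the r with order was 0.461 and 0.465. These are descriptions across genes, which share libraries.

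**Figure D3:**
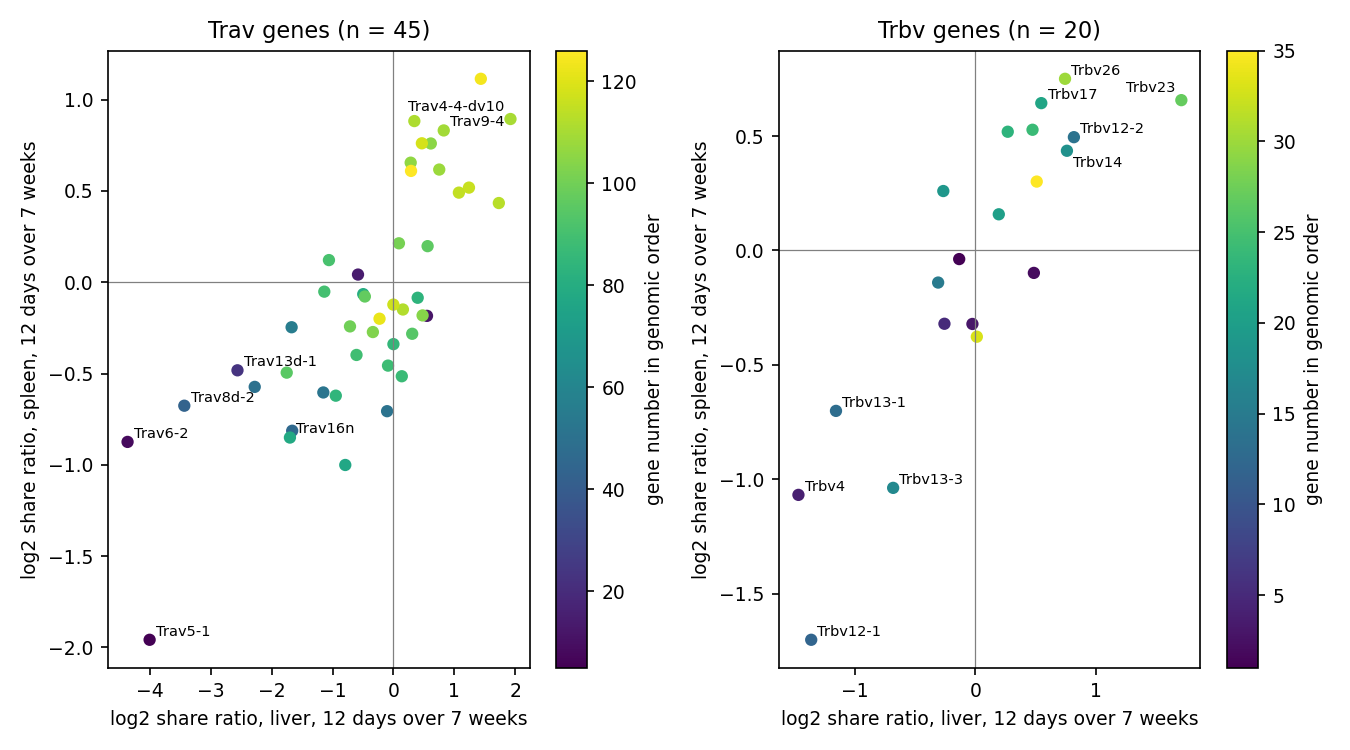
Log2 ratio of the UMI share at 12 days over 7 weeks in liver (x axis) and spleen (y axis) for 45 Trav genes (left) and 20 Trbv genes (right), coloured by order along the locus. Trav genes near the J genes lie mostly at upper right and distal ones at lower left.

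Copies of one gene in different places of the locus gave a closer comparison. There were 13 pairs of an unlettered gene and its d or n copy of the same number, with at least 20 UMIs of both in every library. The unlettered gene, always the nearer to the J genes, had the higher age ratio in 11 of 13 pairs in liver and 11 of 13 in spleen. Its median age ratio was 1.38 in liver and 1.15 in spleen, against 0.315 and 0.672 for the copies. The pairs share genes (3 unlettered genes appear with both of their copies), and 5 of the copies have under 50% unique sequence. Trav16 and Trav16n, at 98.0% identity over the bases shown above, had liver ratios of 2.36 and 0.307 and spleen ratios of 1.43 and 0.555. Trav14-3 and Trav14d-3-dv8 had 1.38 and 0.315 in liver and 1.69 and 0.569 in spleen. The exceptions were Trav7d-3 and Trav10n in liver and Trav7d-3 and Trav7d-4 in spleen. These pairs were set up after gene values had been seen.

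**Figure D4:**
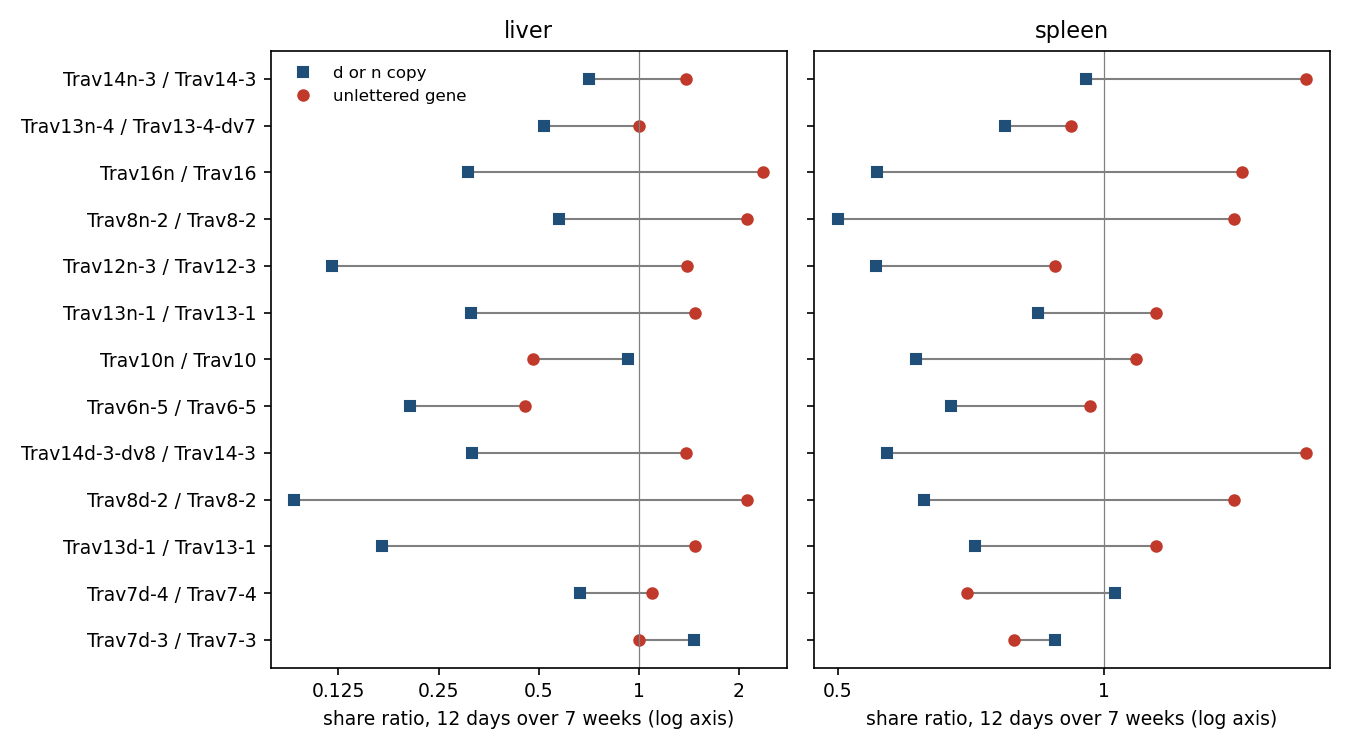
UMI share ratio of 12 days over 7 weeks (x axis, log scale) for 13 pairs of an unlettered Trav gene (circle) and its d or n copy (square), in liver and spleen. In 11 of 13 pairs in each tissue the circle lies to the right of the square.

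A read that matches several copies may not be counted, and 58 of 128 Trav genes have under 50% of their 100-base stretches to themselves. The d copies had a median of 0.42% unique sequence and the n copies 1.18%, against 95.9% for unlettered genes, so the level of the distal and middle blocks may be understated in every library. With Trav genes of at least 50% unique sequence alone, the J-proximal block took 90.2%, 84.5%, 73.3% and 74.0% of UMIs, and the age difference was 16.9 points in liver and 10.5 in spleen.

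Between tissues, 10 of 33 Trav genes were apart at 12 days (6 higher and 4 lower in liver) beside 11.8% of all genes (7.83% higher, 3.97% lower). At 7 weeks 12 of 41 were apart (7 higher, 5 lower) beside 10.4% (6.33% higher, 4.09% lower). By CPM, the scale of the background, 7 of 32 were higher and 4 lower in liver at 12 days. At 7 weeks 5 of 38 were higher and 7 lower by CPM, so the balance of directions there depended on the scale. By share, higher in 12-day liver were Trav8-2 (2.03-fold), Trav13-4-dv7 (1.72), Trav7-5 (1.68), Trav4-2 (1.64), Trav16 (1.60) and Trav4-4-dv10 (1.59). Lower were Trav14d-3-dv8 (0.310), Trav14n-3 (0.404), Trav14-1 (0.519) and Trav6-5 (0.546). All 10 also passed in assigned cells. Trav14d-3-dv8 (0.560) and Trav14n-3 (0.545) were lower in liver at 7 weeks as well, and Trav13-4-dv7 (1.58) higher. Higher in 7-week liver were Trav13d-1 (3.16), Trav6-2 (3.09), Trav6n-5 (1.78), Trav7d-4 (1.75), Trav12-1 (1.69) and Trav10 (1.59). Of the 12 at 7 weeks, 7 also passed in assigned cells. Trav7-6 (0.293), Trav7d-3 (0.451) and Trav10n (0.489) were lower there, Trav7-6 on 2 liver cells against 26 spleen cells. Without the 10 cells with most UMIs of the gene in each library, Trav7d-4, Trav12-1 and Trav13-4-dv7 had log2 ratios of -0.34, -1.20 and -0.49 at 7 weeks, the opposite direction.

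The tissue ratios of the 45 Trav genes at 12 days and at 7 weeks had an r of 0.0063, and 24 of 45 had the same sign. For the 20 Trbv genes r was 0.696 but rho 0.215, with the same sign in 11. No V gene was apart in opposite directions between tissues at the 2 ages, or between ages in the 2 tissues.

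The J genes of the alpha locus were caught in few reads: 346, 253, 65 and 224 Traj UMIs in 12-day liver, 12-day spleen, 7-week liver and 7-week spleen. The 20 Traj genes nearest the V genes (Traj61 to Traj42) took 37.6% (95% interval 32.5 to 42.9), 31.2% (25.6 to 37.3), 15.4% (7.63 to 26.5) and 23.2% (17.9 to 29.3) of them. The 20 nearest the constant gene (Traj21 to Traj1) took 6.36%, 15.8%, 30.8% and 23.7%. The 12-day libraries were thus higher at the V-proximal end, with intervals that overlap between the spleens. Within 12-day liver, cells led by a J-proximal Trav gene had 45.6% of their 193 Traj UMIs from the V-proximal Traj genes, against 23.1% of 39 in the middle block and 0 of 16 in the distal block (95% intervals 38.4 to 52.9, 11.1 to 39.3, and up to 20.6). In 12-day spleen the shares were 43.1%, 12.8% and 15.8%, of 130, 39 and 19 UMIs (34.4 to 52.0, 4.30 to 27.4 and 3.38 to 39.6). In 7-week spleen they were 36.3%, 11.4% and 17.6%, of 80, 35 and 17 UMIs (25.8 to 47.8, 3.20 to 26.7 and 3.80 to 43.4). The share was highest beside J-proximal Trav genes in these 3 libraries, but its interval was clear of the others only for the distal block in 12-day liver and the middle block in 12-day spleen, and 7-week liver had too few UMIs to compare.

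Many cells held RNA of a second V gene. At least 2 UMIs of each of 2 or more Trbv genes were found in 18.6% of cells in 12-day liver, 24.3% in 12-day spleen, 10.6% in liver and 14.3% in spleen at 7 weeks, and of Trav genes in 21.2%, 18.5%, 8.02% and 9.38%. Depth moved with this: after thinning, cells with UMIs of 2 or more Trbv genes made up 13.1%, 17.5%, 15.2% and 16.1%, and of Trav genes 10.4%, 9.91%, 8.57% and 8.45%. The unthinned shares on that count of 1 UMI were 38.9%, 48.2%, 35.1% and 39.5% for Trbv. Of cells with 2 Trbv genes at 2 UMIs, Trbv13-2 was one in 37.7%, 39.3%, 33.1% and 31.9%.

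The second gene lay next to the leading gene, on the side away from the J genes, more often than the share of that gene in all other cells would give. This count, made after values had been seen, used the 45 Trav and 19 Trbv genes (without Trbv31) that reached 1%. For the nearest Trav gene upstream, the cells observed came to 3.71, 4.47, 3.45 and 4.25 times the cells expected, and for the nearest downstream to 1.45, 1.17, 1.63 and 1.27. For Trbv the figures were 2.02, 1.94, 1.94 and 1.88 upstream and 0.915, 0.705, 0.765 and 0.749 downstream. All 4 libraries had the higher value upstream at both loci. In 7-week liver the upstream Trav count was only 20 cells. A pair of neighbours that stands out was Trav3-3 with Trav9-4, both at 2 UMIs in 60 cells of 12-day liver against 10.1 expected. It came to 47 cells against 7.27 in 12-day spleen and 13 against 1.30 in 7-week spleen.

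Trbv13-2 shows the same by single gene. A Trbv13-2 UMI was present in 8.91%, 10.6%, 7.62% and 8.82% of cells led by a gene upstream of it. It was present in 26.0%, 33.9%, 19.9% and 22.6% of cells led by a gene downstream of it other than Trbv31. In cells led by its downstream neighbour Trbv13-3 the share was 40.4%, 53.1%, 39.7% and 36.3%, and in cells led by its upstream neighbour Trbv12-2 10.8%, 11.0%, 13.5% and 9.57%. Trbv31, at the far end of the row and inverted, had 8.55%, 13.7%, 9.33% and 9.38%, within the range of the upstream genes. Trbv26, farther downstream than Trbv13-3, had 5.93%, 12.8%, 19.5% and 13.8%. The part of free RNA, of droplets with 2 cells and of RNA read across neighbouring genes in these shares was not tested.

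**Figure D5:**
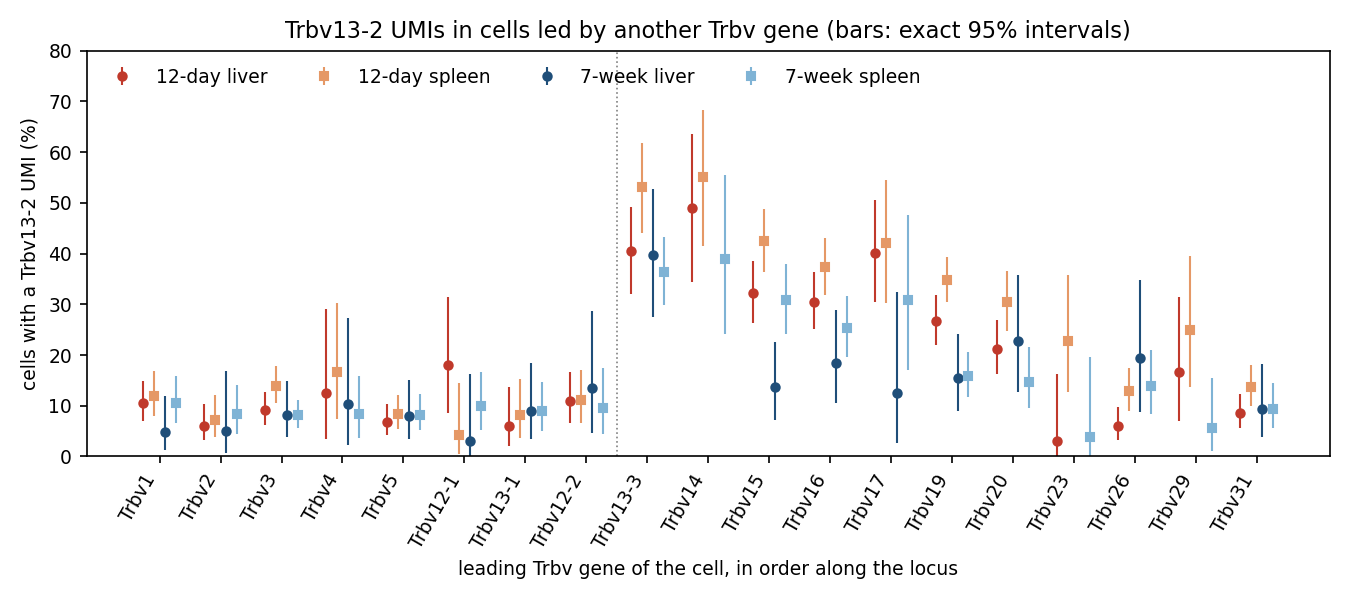
Share of cells with at least 1 Trbv13-2 UMI (y axis, %) by the Trbv gene that leads the cell (x axis, locus order), for leading genes with at least 20 cells; points are libraries, bars exact 95% intervals and the dotted line the place of Trbv13-2. Genes just downstream, from Trbv13-3 to Trbv17, have higher shares than the upstream genes in the 12-day libraries, and Trbv31 does not.

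Pairs of alpha and beta chains were spread widely. Among cells with both chains assigned (2622, 2598, 557 and 1686), the commonest pair made up 1.91% in 12-day liver (Trav4-4-dv10 with Trbv13-2, 50 cells against 30.6 expected from the single shares). In 12-day spleen it was Trav9-4 with Trbv19 at 1.08% (28 cells against 11.2). Trav7-4 with Trbv26 departed most among the top 5 pairs of 12-day liver, at 47 cells (1.79%) against 7.20 expected. It was found in 12 cells of 12-day spleen against 5.73, in 0 of 557 in 7-week liver (95% limit 0.660%) and in 5 of 7-week spleen against 3.08. Of the 47 cells, 46 (97.9%) carried effector marker RNA as defined below, against 74.8% of all paired cells of that library. Whether such cells descend from 1 clone was not tested, since junction sequences were not analysed here.

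Cells were also divided by effector marker RNA, as those with at least 2 UMIs in all of Gzmb, Ccl5, Klrg1, Itgae and Cxcr6 (2777, 1051, 359 and 437 cells) and those with 0 (1097, 2872, 922 and 3047). The marked cells held more alpha chain RNA. Trav RNA came to 1197 against 652 CPM in 12-day liver, 1362 against 781 in 12-day spleen, 963 against 717 in liver and 1146 against 803 in spleen at 7 weeks, a ratio of 1.84, 1.74, 1.34 and 1.43. The alpha constant gene Trac had ratios of 1.68, 1.68, 1.24 and 1.27. Trbv CPM was lower in marked cells, with ratios of 0.682, 0.903, 0.921 and 0.909. All 4 libraries thus had higher Trav and lower Trbv CPM in marked cells, a comparison made after values had been seen. Trbv UMIs per cell went another way, as they were lower in marked cells only in 12-day liver (12.6 against 14.7). They were higher in 12-day spleen (16.3 against 14.8), 7-week liver (9.60 against 7.33) and 7-week spleen (9.38 against 8.73). Marked cells were also deeper, with medians of 5454 against 4282 UMIs in 12-day liver and 3508 against 3074 in 7-week spleen. The part of depth was not tested.

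The age difference along the Trav row was present in both kinds of cell. The J-proximal block led 83.1% (95% interval 81.4 to 84.7) of assigned marked cells in 12-day liver and 61.0% (54.1 to 67.6) in 7-week liver. In unmarked cells of the same libraries it led 79.7% (76.0 to 83.0) and 63.6% (58.3 to 68.8). In spleen it led 81.9% at 12 days and 63.7% at 7 weeks among marked cells, and 74.2% and 67.4% among unmarked ones. The 12-day spleen is where marked and unmarked cells lay farthest apart. Trav4-4-dv10 led 15.9% of marked (14.4 to 17.6) and 6.77% of unmarked cells (4.78 to 9.25) in 12-day liver, and 11.5% and 7.33% in 12-day spleen. At 7 weeks it led 4.23% and 4.99% in liver and 3.75% and 4.02% in spleen. Of the 45 Trav genes, 2 had a higher share of assigned cells among marked cells in all 4 libraries (Trav19, by 1.05 to 1.99 points, and Trav8n-2) and 7 a lower one (Trav5-1, Trav7d-3, Trav8d-2, Trav6n-5, Trav8-1, Trav14-1 and Trav5-4). Of the 20 Trbv genes, 0 were higher and 4 lower in all 4 (Trbv13-1, Trbv13-3, Trbv29 and Trbv31). Among those lower in marked cells were thus Trav5-4, called higher at 12 days in spleen only, and Trbv31, short of the threshold in both tissues. The difference for Trav5-4 ran from -3.93 to -0.041 points.

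Barcodes that passed the gene and mitochondrial filters with no Foxp3 UMI (1511, 1883, 966 and 2196) kept the order of the ages but not the tissue difference at 12 days. Their J-proximal block led 76.6%, 76.6%, 68.0% and 65.9% of assigned cells in the order given above. The tissues were level at 12 days, unlike in the kept cells. At 7 weeks the intervals of liver (62.4 to 73.3) and spleen (62.7 to 69.0) overlapped, so no tissue order could be read there. Between ages, the interval of 12-day liver (73.0 to 79.9) just overlapped that of 7-week liver. That of 12-day spleen (73.8 to 79.3) was clear of 7-week spleen. These barcodes come from the same GFP sort.

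Genes that act with the receptor were read beside the V genes. Of 16 genes of the receptor complex and its signalling (Cd3 chains, constant genes, Cd4, Lck, Zap70 and others), 0 were 1.5-fold higher and 0 lower between tissues at either age. Beside this, 10.0% of all genes at 25 CPM or more were apart between tissues at 12 days and 8.42% at 7 weeks. Such shares of only 16 genes are few, so the 0 is not read as particular to them. The median log2 ratios of the 16 were -0.05 and 0.03 between tissues at 12 days and 7 weeks, and -0.11 and -0.06 between ages in liver and spleen. Over all genes at 25 CPM or more the medians were -0.0018, 0.02, 0.06 and 0.07. Between ages in liver, Lat, an adaptor of receptor signalling, had a CPM ratio of 12 days over 7 weeks of 0.612, and the surface receptor Cd6 one of 0.543. In spleen their ratios were 0.843 and 0.904, within 1.5-fold. The recombinase genes Rag1 and Rag2 were at 0 UMIs in all 4 libraries. Dntt, which adds bases at junctions, was at 0, 4, 2 and 1 UMIs.

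The Treg genes Foxp3, Ikzf2, Il2ra, Ctla4 and Tnfrsf18 came to between 1979 and 2321 CPM in all, beside the label of the sort, though Foxp3 chose the cells. CD8 markers came to 10.1 to 20.5 CPM in all, innate-like T markers to 1.01 to 5.18 and NK markers to 0.268 to 2.60. The haemoglobin genes came to 259 CPM in 12-day spleen and at most 4.40 elsewhere, albumin and Apoa1 to 3.34 and 8.52 CPM in the liver libraries and 0 in the spleens. The B markers came to 51.6, 37.8, 33.9 and 26.8 CPM, mostly from Cd79b, and the myeloid markers to 162, 141, 135 and 135 CPM, mostly from Cst3. Both totals were highest in 12-day liver. Of their other genes, the B gene Cd79a was at 299, 54, 4 and 9 UMIs and Ms4a1 at 61, 7, 0 and 2. The other myeloid genes did not follow their total. Lyz2 was at 0.997, 7.20, 0.608 and 4.33 CPM, and Csf1r at 0.115 CPM in 12-day liver and 0.584 in 12-day spleen, its highest. The constant genes of gamma and delta chains came to 3.45 to 6.08 CPM. Their part in the V gene shares was not tested, though neither haemoglobin nor liver genes enter a share within the Trav or Trbv UMIs.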

How the data were processed

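RNA of sorted Treg cells was counted per gene and barcode, as UMIs. The authors deposited raw counts, 1 matrix per library. Per the file headers these were written by Cell Ranger 4.0.0. The submitters' processing notes list mm10 and Seurat 4.0.2. No header or label records how reads matching several V genes were treated. Counting that keeps only reads of 1 gene would understate near-identical copies. The V(D)J libraries named in the labels were not analysed here.

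Each V gene's UMIs were divided by all Trav or all Trbv UMIs of the kept cells of a library. Intervals for shares are exact Clopper-Pearson limits at 95%, and those for ratios exact conditional binomial limits. With 1 library per group no test was run. PCR duplicates are collapsed by the UMIs, but UMIs of 1 cell are not independent, so intervals cover counting error only. Doublets were not called or removed. No clusters were made. Unique sequence is the share of a gene's 100-base stretches found in no other V gene, over GENCODE vM21 transcripts. Older V beta numbers come from RefSeq's gene table.

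The members and lists were chosen with earlier results of these data known. Genes named are, per comparison and locus, the 6 with the largest ratio in each direction among those apart, the 5 most used per library, all Trbv genes at 1% or more and a fixed list of V genes. Other genes were named after their values were seen, in copy pairs, second genes and pairs of chains. Alternatives tried were stricter cell filters, thinning to 1000 UMIs, shares of assigned cells, leaving out the 10 cells with most UMIs of a gene, other filters on low shares, families and other scaling. Python 3.11.15, numpy 2.4.6, scipy 1.17.1, pandas 2.3.3 and matplotlib 3.10.9 were used, with edgeR 4.0.16 and DESeq2 1.42.0 in R 4.3.3 for scaling factors only. The share calculation was tested on simulated data. Of the genes of the receptor complex and its signalling, the counts between ages are not reported here.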

Additional observations from a re-analysis of the deposited data

How the results depend on the processing

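No paired analysis was possible because each group holds 1 library, and for the same reason no replicate could be left out. Values for single genes were held against the interval of the gene's assigned-cell ratio, widened to the UMI share ratio where that lay outside. By this, 646 kept their direction and lay within it, 16 left it and 8 reversed. The side of the 1.5-fold threshold was not checked. The 78 values over cells assigned at 2 UMIs are the estimates that the interval is drawn around, so they could not leave it. Of the summary values 129 stayed, 26 moved and 1 reversed.

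Counts of Trav genes apart were 10 and 12 between tissues at 12 days and 7 weeks, and 23 and 16 between ages in liver and spleen. With no filter but 1 UMI in each library they were 47, 34, 57 and 54, and with Trav genes summed into numbered families 1, 0, 6 and 4. Over assigned cells the count between ages in spleen was 8, or 9 with cells assigned at 1 UMI. The Trbv count between tissues at 12 days, 2, was 1 with cells assigned at 1 UMI and 1 without the 10 cells with most UMIs of the gene. At 7 weeks the count of 1 became 2 with at least 2 Foxp3 UMIs, with thinning, over cells assigned at 2 or at 1 UMI, without cells of 2 Trbv genes and with a filter at 0.5%. It was 4 with no filter and 7 without the 10 cells. Between ages in liver the Trbv count of 7 was 11 without the 10 cells. Leaving out 10 cells takes a larger share of 7-week liver, the smallest library.

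The J-proximal difference between tissues at 7 weeks, -2.91 points, was 0.143 with thinning. With the Trav genes cut at the middle of the row, the age difference was 14.9 points in liver and 7.63 in spleen. Without the 10 cells, log2 ratios reversed at 7 weeks between tissues for Trav7d-4 (-0.34), Trav12-1 (-1.20) and Trav13-4-dv7 (-0.49), and between ages in liver for Trav8n-2 (0.24), Trav6-3 (0.75), Trav12-1 (0.18) and Trav9-2 (0.17). Trav12-1 at 7 weeks was also -0.25 over cells assigned at 1 UMI. With TMM factors the log2 ratios of summed Trbv CPM were -0.081 between tissues at 7 weeks, and -0.15 and 0.042 between ages in liver and spleen. The cause was not tested. The planned look at recombination signals was not run, since no genome was used here.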
